A study of Mus musculus with 9 samples.

Results

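Txnip, the alpha arrestins Arrdc3 and Arrdc4, and the transcription factors Mlx and Mlxip were followed in BV2 cells, an immortalized line of mouse microglia, after exposure to silica-coated magnetic particles. These 5 genes, of the 40993 in the deposited table, were picked by name, and they were chosen by someone who already knew how their FPKM differed between the groups. Their values are therefore given as a description. Where the fit across all genes called a member, the call is counted beside the share of all genes, and nothing is read from it. All 5 reached a mean level of 1 FPKM, the filter for testing, as did 11161 genes in all. FPKM is the number of fragments per kilobase of transcript and per M (mega) of mapped fragments, so levels of different genes can be compared per length.

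There were 3 RNA libraries per group. The groups were non-treated control cells, and cells exposed for 12 h to MNPs@SiO2(RITC) at a low dose of 10 µg/ml (0.01 µg/µl in the labels) or a high dose of 100 µg/ml (0.1 µg/µl). MNPs@SiO2(RITC) are particles with a cobalt ferrite core in a silica shell that holds rhodamine B isothiocyanate. All 9 libraries came from the same cell line, and no source says whether replicates were separate cultures, so p-values measure the spread between these libraries, which may be technical. The depth, estimated from the steps between low FPKM values, was 12.15 to 15.05 M fragments per library. Of the microglia and macrophage markers, Cd68 was at 376 to 469.9 FPKM and Csf1r at 116 to 145 FPKM over the 9 libraries, while Cx3cr1 and P2ry12 were at most 0.077 and 0.146 FPKM. Aif1, Csf1r and Ptprc were lower in every high dose library than in every control library, and their part in the results below was not tested. Of the 12 markers of astrocytes, neurons, oligodendrocytes and endothelial cells, the single marker above 1 FPKM was Syn1, and Aqp4, Rbfox3, Mog and Cldn5 were listed at 0 in every library. In bulk RNA, fewer cells with a transcript and less transcript per cell cannot be told apart.

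Txnip encodes thioredoxin-interacting protein, an alpha arrestin that binds thioredoxin and that promotes the removal of glucose transporters from the cell surface. Arrdc4 and Arrdc3 belong to the same family of adaptors, which recruit NEDD4-type ubiquitin ligases to membrane proteins. Mlxip, also called MondoA, is a helix-loop-helix leucine zipper factor that pairs with Mlx, enters the nucleus when glucose 6-phosphate is plentiful and binds carbohydrate response elements, which are pairs of E box letters separated by a short gap. Txnip and Arrdc4 are textbook targets of this pair. In macrophages and microglia, Txnip is also known as a partner of the NLRP3 inflammasome.

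The promoters of Txnip, Arrdc4 and Mlx are shown because they held E box letters and because the members differed in how far their RNA moved between groups. RefSeq promoter windows (GRCm38.p6, the build of the table) matched all 5 members, and the 250 bases before the start are printed 5′ to 3′ on the strand of the gene. They lie at chr3:96557707-96557956 on the plus strand for Txnip, chr7:68749239-68749488 on the minus strand for Arrdc4 and chr11:101087040-101087289 on the plus strand for Mlx. The start of the Txnip window is the start of the gene in the deposited table, while in that table Arrdc4 and Mlx start 3 and 13 bases before the start of their windows. Capitals mark the E box CACGTG, a relaxed E box pair (CACGNG or CNCGTG, then 5 bases, then either again) and the CCAAT box (CCAAT, or ATTGG on the other strand).
Txnip: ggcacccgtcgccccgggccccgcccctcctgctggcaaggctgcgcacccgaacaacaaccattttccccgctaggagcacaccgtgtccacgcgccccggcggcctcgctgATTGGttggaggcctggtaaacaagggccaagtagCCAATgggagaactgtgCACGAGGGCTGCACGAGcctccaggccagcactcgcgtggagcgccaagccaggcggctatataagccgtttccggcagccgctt
Arrdc4: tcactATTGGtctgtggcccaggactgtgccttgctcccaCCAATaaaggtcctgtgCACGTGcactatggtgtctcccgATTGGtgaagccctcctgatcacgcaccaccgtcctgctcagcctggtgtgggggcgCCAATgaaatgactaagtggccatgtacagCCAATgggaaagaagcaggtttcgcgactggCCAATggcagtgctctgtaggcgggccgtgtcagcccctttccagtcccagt
Mlx: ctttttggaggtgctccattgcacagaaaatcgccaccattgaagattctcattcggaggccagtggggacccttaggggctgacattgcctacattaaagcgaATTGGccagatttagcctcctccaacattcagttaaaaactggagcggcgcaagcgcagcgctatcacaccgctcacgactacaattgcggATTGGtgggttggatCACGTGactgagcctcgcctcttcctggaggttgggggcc

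The Txnip window held the pair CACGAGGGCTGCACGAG at positions -85 to -69 from the start, and CCAAT boxes at -137 to -133 and -102 to -98. The letters of the pair were fixed after the Txnip window had been seen, and they occurred in 27 of 32851 promoter windows of the same length (0.08%). The windows also include bases after the start, which are not printed, and all shares refer to whole windows. Arrdc4 held CACGTG at -193 to -188 and 6 CCAAT boxes, and Mlx held CACGTG at -40 to -35 and 2 CCAAT boxes. CACGTG occurred in 7.15% of all windows and the CCAAT box in 37.41%, on either strand and with overlaps between motifs allowed. The Mlxip window held 2 CCAAT boxes and neither E box pattern. Of the 3 windows of Arrdc3, a pair that overlap held 1 CCAAT box, the same bases in both. The relaxed pair was found for 26 genes, of which 13 were tested, with a median difference of 0.074 at 100 µg/ml against control. Txnip, whose window set the letters, is among them and is the 1 gene of the 13 that was called. CACGTG was found for 2187 genes, of which 983 were tested, 5 were higher and 10 lower, with a median of -0.008. Over all 7820 tested genes with a window, 60 were higher and 111 lower, with a median of -0.002. These matches describe letters and not binding.

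Txnip (ENSMUSG00000038393, chr3:96557957-96561883, plus strand) was the most abundant member and, on the log2(FPKM + 1) scale, the one with the largest difference between high dose and control. Its level was 93.8, 97.5 and 89.5 FPKM in the 3 control libraries, 99.9, 115 and 109 FPKM at 10 µg/ml, and 157, 158 and 149 FPKM at 100 µg/ml. The 3 groups did not overlap, and every library of a higher dose lay above every library of the dose below it. The group means were 93.6 ± 4.01, 108 ± 7.68 and 155 ± 4.94 FPKM (SD, n = 3 each). On the log2(FPKM + 1) scale the fitted difference from control was 0.72 ± 0.06 (SE) at 100 µg/ml, a mean level 65.2% higher. At 10 µg/ml it was 0.20 ± 0.06, a mean level 15.3% higher. Between the doses the difference was 0.52 ± 0.06, and 33.8 FPKM separated the lowest library at 100 µg/ml from the highest at 10 µg/ml. The corresponding gap between 10 µg/ml and control was 2.35 FPKM. At 100 µg/ml, 63 of the 11161 genes had a larger positive difference from control than Txnip. By the estimated depth and the longest transcript of the gene, about 3235 to 6676 fragments stood behind each Txnip value. Shorter transcripts would give fewer.

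**Figure D1:**
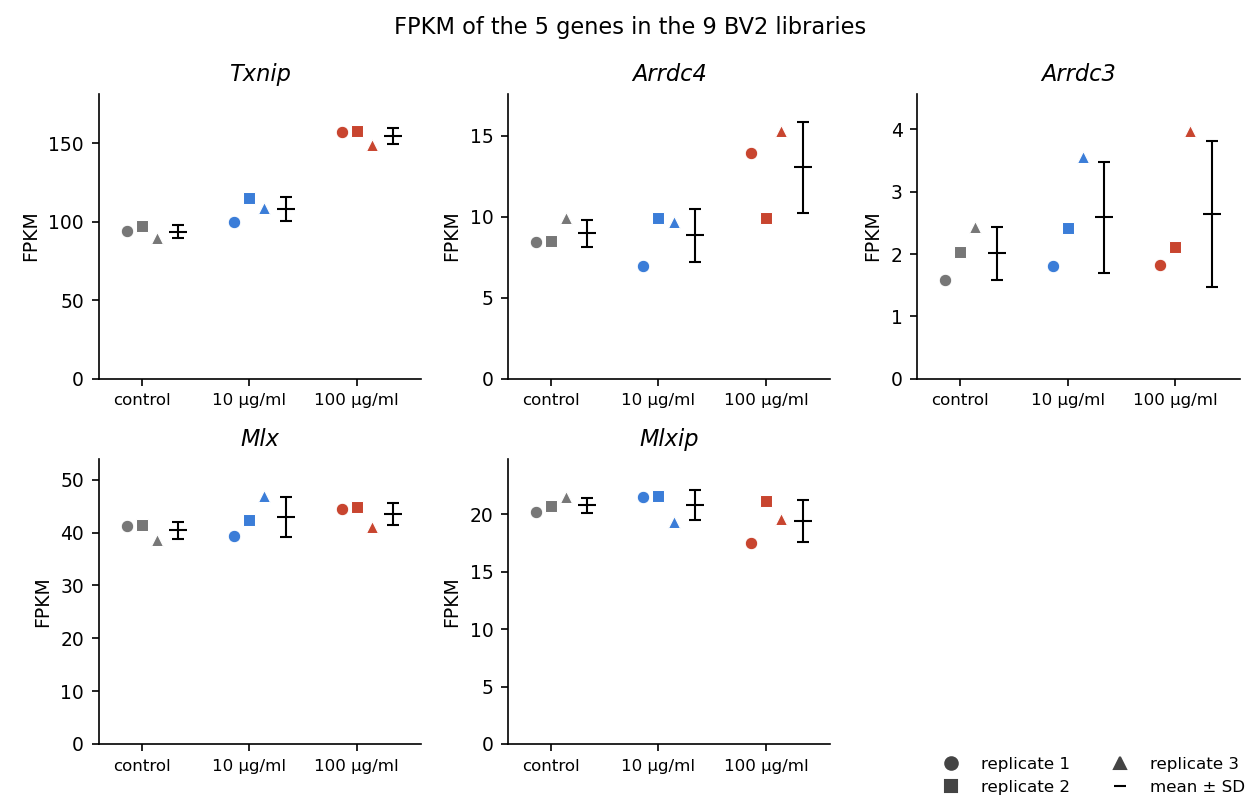
FPKM (vertical axes, from 0) of Txnip, Arrdc4, Arrdc3, Mlx and Mlxip in control, low dose and high dose libraries; point shapes give the replicate number, and the bar beside each group is its mean with the SD of 3 libraries. Txnip steps up without overlap from 93.6 to 108 and 155 FPKM, Arrdc4 is higher in high dose libraries 1 and 3, and Mlx and Mlxip overlap between all groups.

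Arrdc4 (ENSMUSG00000042659, chr7:68737045-68749241, minus strand), the alpha arrestin known to share glucose control with Txnip, had its highest 2 values at the high dose. It measured 8.45, 8.52 and 9.90 FPKM in control cells, 6.96, 9.91 and 9.66 FPKM at 10 µg/ml, and 13.9, 9.91 and 15.3 FPKM at 100 µg/ml. High dose libraries 1 and 3 stood above every other library, while high dose library 2 lay 0.00861 FPKM above the highest control library and level with low dose library 2. The means were 8.96 ± 0.818, 8.84 ± 1.64 and 13 ± 2.78 FPKM (SD, n = 3 each). The fitted difference from control was 0.48 ± 0.17 for the high dose and -0.03 ± 0.17 for the low dose, and it was 0.50 ± 0.17 between the doses. Without high dose library 2 the difference from control was 0.646, and without high dose library 3 it was 0.358. The CV of the high dose libraries was 21.3% for Arrdc4 and 3.19% for Txnip.

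Arrdc3 (ENSMUSG00000074794, chr13:80883384-80896035, plus strand), an adaptor in the trafficking of adrenergic receptors and integrins, was the least abundant member. Its values were 1.58, 2.03 and 2.43 FPKM in control cells, 1.80, 2.41 and 3.55 FPKM at 10 µg/ml, and 1.82, 2.12 and 3.98 FPKM at 100 µg/ml. The groups overlapped over most of their range. In each group the library numbered 1 was lowest and the library numbered 3 highest, an identical order in the 3 groups that 311 of the 11161 genes (2.79%) showed and no other member did. The means were 2.01 ± 0.423, 2.59 ± 0.893 and 2.64 ± 1.17 FPKM (SD, n = 3 each). The fitted differences from control were 0.24 ± 0.25 for the high dose and 0.23 ± 0.25 for the low dose, each no larger than its SE. Without high dose library 3 the former was -0.012. By the same estimate, about 79.7 to 219.7 fragments stood behind an Arrdc3 value.

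Mlx (ENSMUSG00000017801, chr11:101087277-101092207, plus strand), the partner that Mondo proteins need to bind DNA, stayed within 38.6 to 46.9 FPKM in all 9 libraries. It measured 41.2, 41.5 and 38.6 FPKM in control cells, 39.4, 42.4 and 46.9 FPKM at 10 µg/ml, and 44.5, 44.9 and 41.1 FPKM at 100 µg/ml. The groups overlapped, and the highest value was a low dose library. Means were 40.4 ± 1.59, 42.9 ± 3.74 and 43.5 ± 2.11 FPKM (SD, n = 3 each), with fitted differences from control of 0.10 ± 0.07 for the high dose and 0.08 ± 0.07 for the low dose. The gene overlaps Psmc3ip on the opposite strand, which was listed at 9.98 to 13 FPKM. The methods of the study name a kit called stranded and another not so called. No source used here says that strand was used in the estimate.

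Mlxip (ENSMUSG00000038342, chr5:123394798-123457932, plus strand), the glucose-responsive partner of Mlx, stayed within 17.5 to 21.6 FPKM. It measured 20.2, 20.7 and 21.5 FPKM in control cells, 21.5, 21.6 and 19.3 FPKM at 10 µg/ml, and 17.5, 21.2 and 19.6 FPKM at 100 µg/ml. High dose library 1 was the lowest of the 9, and the groups overlapped. Means were 20.8 ± 0.634, 20.8 ± 1.30 and 19.4 ± 1.86 FPKM (SD, n = 3 each). The fitted difference from control was -0.10 ± 0.08 for the high dose and -0.002 for the low dose. The former was -0.029 without high dose library 1 and -0.161 without high dose library 2. The rows that overlap Txnip, Arrdc3 and Mlxip on the opposite strand were at most 0.402 FPKM, and no row overlapped Arrdc4.

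In the comparison of high dose with control, 1 of the 5 members (Txnip) passed an adjusted p of 0.05 by limma, beside 2.11% of the 11161 genes tested, and 2 (Txnip and Arrdc4) had libraries that did not overlap between the groups, beside 23.8% of all genes. For low dose against control, 0 members passed, as did 0 of all genes (0.0%). In that comparison 366 genes (3.28%) were at an unadjusted p under 0.05 by limma, a smaller share than the threshold alone would give. Txnip alone of the members did not overlap there, beside 10.7% of all genes. Between the doses, 1 member (Txnip) passed, beside 0.851% of genes, and 1 (Txnip) did not overlap, beside 19.4%. The median difference of the 5 members from control was 0.238 for the high dose and 0.08 for the low dose, where the median over all genes was -0.002 and 0.0. The 3 comparisons share libraries, and the members were chosen with these contrasts known.

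**Figure D2:**
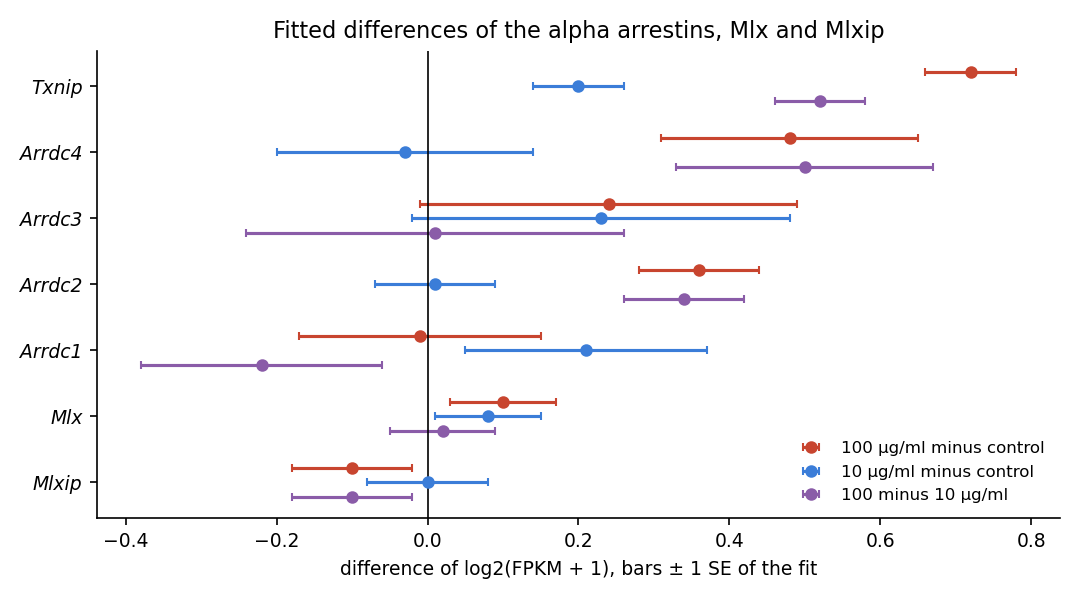
Fitted differences of log2(FPKM + 1) (horizontal axis) for the 5 members and for Arrdc2 and Arrdc1, with bars of 1 SE, for both doses against control and for the high against the low dose. Txnip lies at 0.72, 0.20 and 0.52, while the bars of Arrdc3 reach 0 in all 3 comparisons.

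Per length, the order of the levels was the same in every library: Txnip, then Mlx, Mlxip, Arrdc4 and Arrdc3. Over all 9 libraries Txnip ranged from 89.5 to 158 FPKM, Mlx from 38.6 to 46.9, Mlxip from 17.5 to 21.6, Arrdc4 from 6.96 to 15.3 and Arrdc3 from 1.58 to 3.98 FPKM, so no neighbours in this order overlapped. By mean level in control cells, Txnip ranked 1017 among the 11161 genes and Arrdc3 ranked 10351. Mlx was 1.80 to 2.55 times as abundant as Mlxip. Thioredoxin itself (Txn1), the protein that Txnip binds, was measured at 193 to 260 FPKM. The ratio of Txnip to Txn1 RNA was 0.361, 0.434 and 0.426 in control libraries, 0.474, 0.574 and 0.513 at 10 µg/ml and 0.603, 0.818 and 0.736 at 100 µg/ml. The groups did not overlap in this ratio, which holds the Txnip values that chose the gene. Txnip relative to Mlx was 2.31 ± 0.0362 in control cells and 3.56 ± 0.0611 at 100 µg/ml (SD, n = 3 each).

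Across the 9 libraries the members varied together to different degrees on the log2(FPKM + 1) scale, with dose groups shared by all points. Pearson's r was 0.73 between Txnip and Arrdc4, 0.54 between Txnip and Mlx, -0.50 between Txnip and Mlxip and 0.24 between Txnip and Arrdc3. Mlx and Mlxip, which form 1 dimer as proteins, had r = -0.53. Among all other tested genes, those with the highest r with Txnip were Pgam5 (r = 0.991), a mitochondrial phosphatase, Gm4944 (0.990), Plaa (0.981), C230052I12Rik (0.979) and Aftph (0.977). Pgam5 measured 45.2 FPKM in control cells, 47.3 at 10 µg/ml and 55.6 at 100 µg/ml on average, a smaller step than that of Txnip. For Arrdc4 the genes were Orc5 (0.932) and Camk2n2 (0.930), for Mlx Commd4 (0.943) and Klhl5 (0.922), and for Mlxip Prex1 (0.983) and 4930565N06Rik (0.977). For Arrdc3 they were Gm7931 (0.908) and Gm16276 (0.905), both listed at 0 in all libraries but low dose 3 and high dose 3, which are also the highest Arrdc3 libraries.

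Beside the members, 92 genes of 9 pathway lists were examined, of which 66 passed the filter. By limma, 1 of the 66 was higher and 2 were lower at 100 µg/ml than in control cells, beside 2.11% of all genes, and 12 were higher and 11 lower without overlap of the groups, beside 23.8% of all genes that did not overlap in either direction. Between the doses 0 were higher and 2 lower, beside 0.851% of all genes. For low dose against control 0 passed, with 1 gene at an unadjusted p under 0.05 by limma, beside 3.28% of all genes. The median difference of the 66 from control was -0.02 at 100 µg/ml.

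The other alpha arrestins are Arrdc1, Arrdc2 and Arrdc5, of which the former pair passed the filter and none passed the test in any comparison. Arrdc2 measured 7.24, 8.27 and 7.57 FPKM in control cells, 7.58, 7.32 and 8.43 FPKM at 10 µg/ml, and 10.9, 10.2 and 9.41 FPKM at 100 µg/ml. Its high dose libraries lay above all others, with a difference from control of 0.36 ± 0.08 and an adjusted p of 0.0615 by limma. Arrdc1, an adaptor in the budding of vesicles from the plasma membrane, measured 17.3, 14.5 and 17.0 FPKM in control cells, 19.5, 18.0 and 19.1 FPKM at 10 µg/ml, and 21.3, 15.6 and 12.5 FPKM at 100 µg/ml. Its low dose libraries lay above every control library (difference 0.21 ± 0.16), and its high dose libraries overlapped both groups (difference from control -0.01 ± 0.16). Arrdc5 was listed at 0 in every library. Alpha arrestin RNA in these cells was thus led by Txnip, with Arrdc1, Arrdc4, Arrdc2 and Arrdc3 at 17.2, 10.3, 8.54 and 2.41 FPKM on average. The ranges of Arrdc1 and Arrdc4 overlapped, as did those of Arrdc4 and Arrdc2. Of the beta and visual arrestins and the arrestin-fold proteins Vps26a, Vps26b and Dscr3, 5 of 7 were tested and none passed. Arrb2, the most abundant, had 90.4 ± 9.61 FPKM in control cells and 79.0 ± 6.76 FPKM at 100 µg/ml (SD, n = 3), and Vps26a had 60.6 ± 0.779 and 59.0 ± 1.75 FPKM.

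Of the Max and Mlx network, the helix-loop-helix factors that compete for shared partners and E boxes, 7 of 11 were tested and none passed by the main test. Max, the partner of Myc, measured 108 ± 3.69, 102 ± 2.98 and 102 ± 5.47 FPKM in the control, low and high dose groups (SD, n = 3). Mxi1, a repressor that pairs with Max, measured 30.7 ± 0.556 FPKM in control cells and 33.4 ± 0.602 FPKM at 100 µg/ml (adjusted p = 0.258 by limma). Mlxipl, the paralog of Mlxip known as ChREBP in liver, was at most 0.249 FPKM and was listed at 0 in 4 of 9 libraries. Mxd4 and Myc, named here after their values were seen, were low in abundance. Mxd4, a repressor that pairs with Max, measured 1.22 ± 0.0602 FPKM in control cells and 0.627 ± 0.0594 FPKM at 100 µg/ml. Its difference was -0.45 ± 0.11, with an adjusted p of 0.0786 by limma. At 100 µg/ml all its libraries lay below 1 FPKM, at 0.564, 0.682 and 0.635. It passed the filter, at a mean of 1.03 FPKM, only through the control and low dose libraries, so nothing is read from its fall. Myc measured 2.1 ± 0.0608 and 1.39 ± 0.0643 FPKM, with a difference of -0.38 ± 0.10 and an adjusted p of 0.0963. Without the trend option of limma, which lets the variance follow the mean level, both were called, at an adjusted p of 0.00814 for Mxd4 and 0.0391 for Myc.

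The list of glucose response targets holds 15 genes of glycolysis, lipid synthesis and transcription that carbohydrate response factors are known to control, of which 9 were tested. Hk2, the hexokinase that traps glucose as glucose 6-phosphate, was the single gene of this list to pass, and it fell. It measured 69.3, 71.2 and 71.7 FPKM in control cells, 72.4, 70.5 and 67.4 FPKM at 10 µg/ml, and 50.2, 55.7 and 55.5 FPKM at 100 µg/ml. The 3 high dose libraries lay below all others. The difference from control was -0.39 ± 0.06 (adjusted p = 0.0132 by limma) and that from low dose was -0.38 ± 0.06 (adjusted p = 0.0249 by limma). Without control library 1, 2 or 3 the adjusted p against control by limma was 0.0536, 0.0718 and 0.0510. Against low dose it rose to between 0.0507 and 0.127 by limma without any one of control libraries 1, 2 and 3, low dose libraries 1, 2 and 3 or high dose libraries 2 and 3. Ldha, the lactate dehydrogenase subunit of glycolytic cells, was the most abundant gene of the list, with 1633 ± 52.8 FPKM in control cells and 1812.5 ± 133 FPKM at 100 µg/ml (adjusted p = 0.255 by limma). Tkt, of the pentose phosphate pathway, measured 275 ± 2.65 and 284 ± 19.4 FPKM. The median difference of the 9 tested genes was 0.04.

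All 14 genes of the thioredoxin system were tested, and at 100 µg/ml 1 rose and 1 fell. Txnrd1, the cytosolic reductase that restores thioredoxin, rose. It measured 113, 109 and 111 FPKM in control cells, 113, 120 and 123 FPKM at 10 µg/ml, and 135, 135 and 139 FPKM at 100 µg/ml. All high dose libraries lay above the others, with a difference from control of 0.30 ± 0.05 (adjusted p = 0.0197 by limma). Without control library 1, 2 or 3 or high dose library 3 the adjusted p was 0.0737, 0.102, 0.0655 and 0.0773 by limma. Between the doses the difference was 0.20 ± 0.05 (adjusted p = 0.112 by limma). Prdx6, a peroxiredoxin that reduces phospholipid peroxides and that takes its electrons from glutathione, fell. It measured 191, 191 and 196 FPKM in control cells, 174, 180 and 193 FPKM at 10 µg/ml, and 137, 120 and 132 FPKM at 100 µg/ml. High dose libraries lay below all others, with differences of -0.57 ± 0.06 from control (adjusted p = 0.00577 by limma) and -0.49 ± 0.06 from low dose (adjusted p = 0.0141 by limma). Against control Prdx6 stayed past the threshold without any one library, at an adjusted p of at most 0.0454 by limma. Against low dose the adjusted p was 0.0655, 0.0737 and 0.0652 by limma without low dose library 1, 2 or 3 and 0.0762 without high dose library 3. The related copy Prdx6b was listed at no more than 0.0645 FPKM, and reads that fit both copies could have been split between them. Txn1 itself measured 231 ± 25.5, 208 ± 6.28 and 219 ± 36.4 FPKM in the control, low and high dose groups, and Prdx1 458 ± 14.3, 446 ± 35.2 and 446 ± 54.8 FPKM (SD, n = 3).

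**Figure D3:**
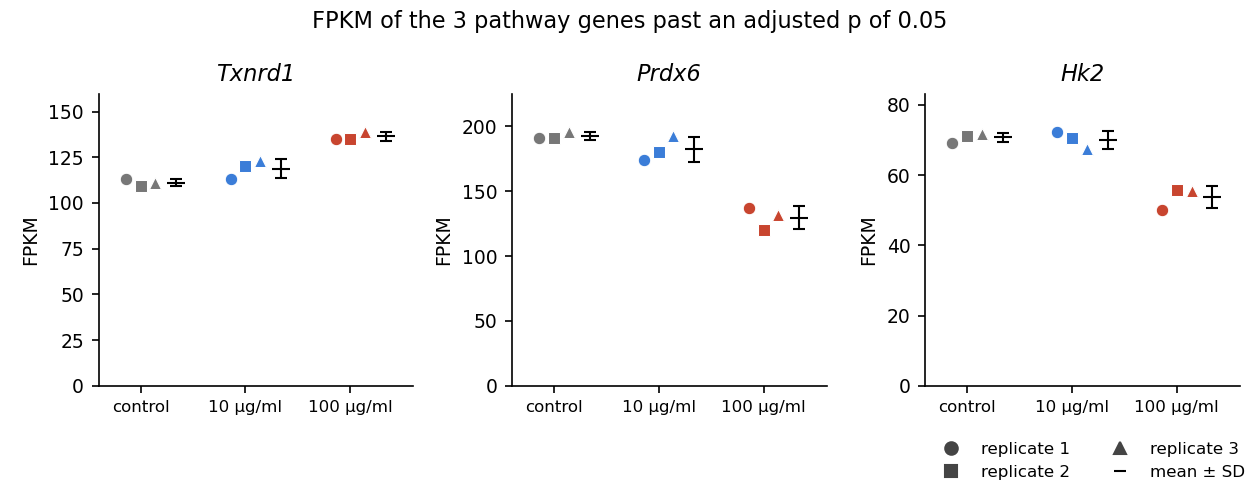
FPKM (vertical axes, from 0) of Txnrd1, Prdx6 and Hk2, the 3 pathway genes that passed at 100 µg/ml, in every library, with the mean and SD of 3 libraries beside each group. The high dose libraries lie apart, at 135 to 139 FPKM for Txnrd1, 120 to 137 for Prdx6 and 50.2 to 55.7 for Hk2.

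Of 16 genes of glucose entry and glucose 6-phosphate, 9 were tested and none passed. Slc2a1, the most abundant glucose transporter of the list and a known cargo of Txnip, measured 134 ± 4.08, 136 ± 2.84 and 127 ± 1.04 FPKM in the 3 groups (SD, n = 3). Its high dose libraries lay below all others, with a difference from control of -0.08 ± 0.04 and an adjusted p of 0.394. Slc2a3, the transporter typical of neurons, was at most 0.614 FPKM. Gpi1, which isomerizes glucose 6-phosphate, measured 313 ± 5.34 FPKM in control cells and 321 ± 17.5 FPKM at 100 µg/ml. Of the NEDD4 family ligases, which alpha arrestins bind, 6 of 9 were tested and none passed. Itch, the ligase known to ubiquitinate Txnip, measured 38.3 ± 0.570 and 35.7 ± 5.11 FPKM in control and high dose cells, and Wwp2 16.7 ± 0.901 and 18.5 ± 0.451 FPKM.

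AMPK is a kinase known to phosphorylate Txnip and mark it for degradation, and none of the 9 tested genes of its list of 10 passed. Cab39 measured 109 ± 2.94 FPKM in control cells and 114 ± 5.43 FPKM at 100 µg/ml, and Stk11, the upstream kinase LKB1, 41.3 ± 1.99 and 44.2 ± 4.34 FPKM (SD, n = 3). Of the NLRP3 inflammasome list 5 of 7 genes were tested, and none was at an unadjusted p under 0.05 in any comparison. Nek7 measured 32.8 ± 2.04 and 32.0 ± 1.76 FPKM, and Casp1 23.1 ± 1.71 and 20.5 ± 1.74 FPKM, in control and high dose cells. Il1b was at most 1.11 FPKM and Pycard at most 0.108 FPKM in any library.

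**Figure D4:**
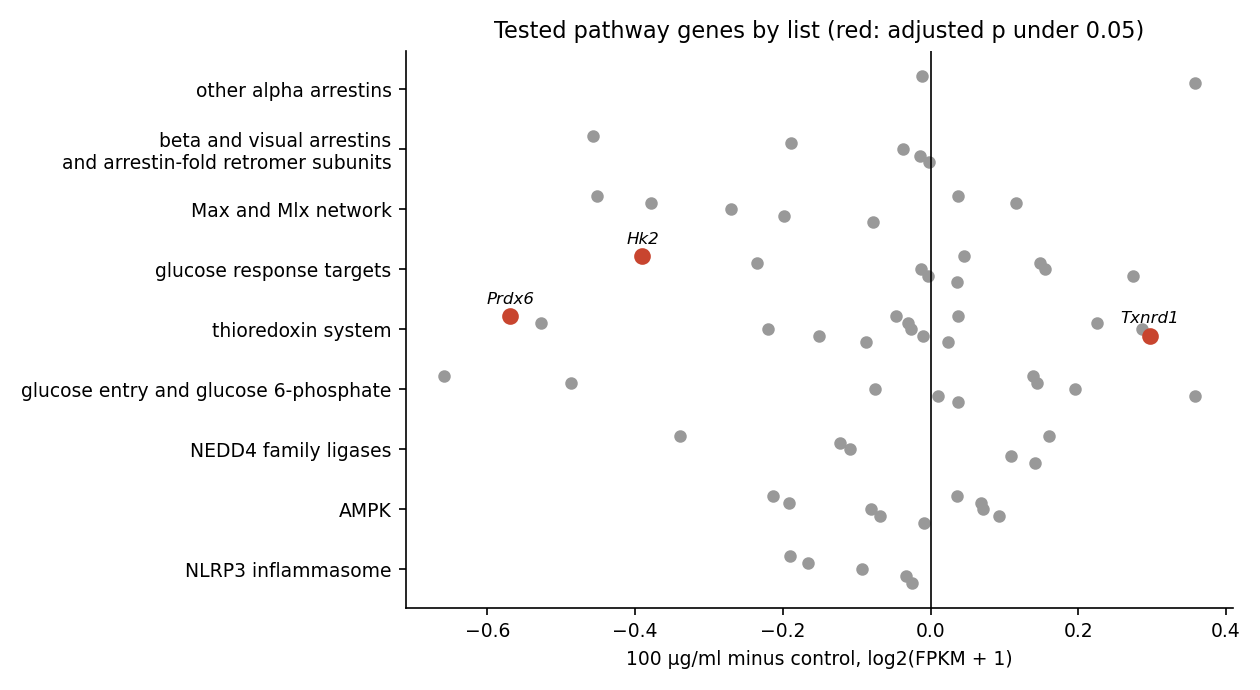
Fitted difference of log2(FPKM + 1) between 100 µg/ml and control (horizontal axis) for the 66 tested genes of the 9 pathway lists, 1 row per list; larger red points passed an adjusted p of 0.05. Txnrd1 lies at 0.30, Hk2 at -0.39 and Prdx6 at -0.57, and grey points spread to both sides of 0 in 7 of the 9 lists.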

How the data were processed

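The 9 RNA libraries of BV2 cells were made with oligo(dT) selection and grouped by the condition in their labels. The methods of the study name a kit called stranded and another not so called. Per the labels and the methods of the study, the authors filtered reads, aligned them with TopHat (version not given in the sources used here), and estimated FPKM with Cufflinks 2.1.1 and the GRCm38 gene models of Ensembl release 77, with corrections for fragment bias and multi-mapped reads. The deposited table holds FPKM without counts, so a gene can move when others take more of a library, and depth was estimated from steps between low values (74.0% to 82.0% of them within 0.25 of a whole fragment). Values were analysed as log2(FPKM + 1), a scale that understates changes of low genes.

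The 11161 genes whose mean reached 1 FPKM were fitted with limma 3.58.1 in R 4.3.3 (3 groups in one model, eBayes with trend, two-sided, Benjamini-Hochberg adjustment). Calls are at an adjusted p of 0.05. Tables used pandas 2.3.3 and numpy 2.4.6 in Python 3.11.15, and the fit was first tested on simulated data. Members and lists were chosen with earlier results of these data known. Named list genes were those past the threshold in any comparison, the 2 most abundant tested genes of each list, and Txn1, Max, Mlxipl, Itch, Slc2a1 and Slc2a3, with any others said to be chosen later. Likeness was Pearson's r over 9 libraries, for 5 genes with Txnip and 2 with each other member. Alternatives were other pseudocounts (0.1 and 0.01), filters, scalings, a replicate block, eBayes without trend, only the 6 libraries compared, and each library left out. Replicate numbers were not used as pairs in the main fit. A marker of the microglia list is not reported here. Protein sequences, Cuffdiff, RT-qPCR and amino acid data were not used here.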

Additional observations from a re-analysis of the deposited data

How the results depend on the processing

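The fitted differences of the 5 members moved by less than 1 SD of the replicates in all 267 refits over the alternatives, Arrdc3 having no value under the filter at 5 FPKM. Most of these refits could not have moved further. Leaving out 1 of 3 libraries cannot shift a difference by more than that SD. The filters, the replicate block, the fit without trend and the fit to 6 libraries leave the difference itself unchanged. Only the other pseudocounts and scalings could have exceeded it. The sign changed in 10 of the 267 refits, for Arrdc3 (100 µg/ml against control and against 10 µg/ml), Mlx (between the doses) and Arrdc4 and Mlxip (10 µg/ml against control), and in 0 for Txnip. Leaving out a library gave 0.687 to 0.748 for Txnip at 100 µg/ml against control and 0.154 to 0.256 at 10 µg/ml, while Arrdc3 at 100 µg/ml spanned -0.012 to 0.398. Counts of calls varied with the fit. Without the low dose libraries (only the 6 libraries compared), 22 genes and 1 list gene were called at 100 µg/ml against control, where the fit to 9 libraries called 236 and 3. With only the 6 libraries of the comparison there was 1 gene at 10 µg/ml against control, and there were 6 genes and 0 list genes between the doses, where the fit to 9 called 95 and 2. Fewer samples enter these fits. Without the filter on low values 4 genes were called at 10 µg/ml against control. Without the trend 5 list genes were called at 100 µg/ml and 4 between the doses, the additional genes being Mxd4 and Myc. Of these, Mxd4 passed the filter only through its control and low dose libraries.

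Replicate numbers were not shown to pair the libraries. The deviations of same-numbered libraries correlated at r = -0.088 to 0.152, and those of differently numbered libraries at r = -0.166 to 0.143. With a replicate block 106 genes and 2 list genes were called at 100 µg/ml against control (the adjusted p of Txnrd1 was 0.0622 by limma), 13 genes and 0 list genes were called between the doses, and the SE of the Arrdc3 difference was 0.127.

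Leaving out 1 library gave 31 to 539 genes at 100 µg/ml against control, 0 to 2 at 10 µg/ml and 8 to 191 between the doses. For list genes it gave 1 to 4 at 100 µg/ml and 0 to 2 between the doses. At 100 µg/ml the count was 45, 31 and 96 without control library 1, 2 or 3, 150 and 139 without low dose library 1 or 3, and 539, 154 and 78 without high dose library 1, 2 or 3. The causes were not tested. At an estimated 12.15 to 15.05 M fragments per library, Arrdc3 had the fewest estimated fragments among the members, at 79.7 to 219.7. Whether this number accounts for the spread of the Arrdc3 values was not tested.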
